A study of Mus musculus with 6 samples.

Results

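The genes described here are 10 that drive cells from G1 into S phase: the D cyclins Ccnd1, Ccnd2 and Ccnd3, the E cyclins Ccne1 and Ccne2, the A cyclin Ccna1, the cyclin-dependent kinases (CDKs) Cdk2, Cdk4 and Cdk6, and the phosphatase Cdc25a. They were taken by symbol, whatever their counts, from a table of 24062 genes. Poly(A) RNA of whole retinae was sequenced at postnatal day 21 (P21), with 3 Rb1/p107/Hells triple knockout (TKO) and 3 Rb1/p107 double knockout (DKO) retinae. DKO mice carry Chx10-Cre, Rb1 lox/lox and p107-/-, and TKO mice carry the same alleles and Hells lox/lox, so that loss of Rb1 and p107 is shared by both groups. The labels give the strain as C57BL/6 and the methods give C57BL/6N. The study describes DKO mice as littermates of TKO mice for its tumour follow-up, and does not state this for the retinae sequenced here. Chx10-Cre acts in retinal progenitor cells in a mosaic pattern, so each retina also holds cells in which the lox alleles were not recombined. No Cre-negative retina was analysed here. The samples are bulk tissue, where fewer cells of a type and less RNA per cell cannot be told apart.

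D cyclins pair with CDK4 and CDK6 and start the phosphorylation of the RB family, which releases E2F factors. E cyclins, and later A cyclins, pair with CDK2 and drive entry into and progress through S phase, and CDC25A activates these kinases by removing an inhibitory phosphate. In the developing retina cyclin D1 is the main D cyclin of progenitor cells, and cyclin D3 is found in Muller glia. Neurons of the mature retina have left the cell cycle.

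Promoter sequences are shown for the genes that were called lower, where a start site was listed, and for Ccnd3 as a D cyclin that was not. RefSeq promoter windows of GRCm38.p6, from 250 bases before to 50 bases after a start site, were found for 7 of the 10 genes (8 windows, 2 of them of Ccnd3). The E2F words TTTCCCGC, TTTCGCGC, TTTGCCGC and TTTGGCGC, searched on both strands, were present in 2 of the 8 windows, those of Cdc25a and Cdk2, and in 2.26% of all 32851 windows. The E-box CACGTG, which reads the same on both strands and was searched after the sequences had been read, was present 4 times in the Cdk4 window and 1 time in that of Cdk6, and in 7.15% of all windows. The CHR words TTTGAA and TTCGAA of many mitotic gene promoters were present in none of the 8 windows and in 19.2% of all windows, and CCAAT, searched on both strands like them, in 4 of the 8 and in 37.4% of all windows. The stretches below run 5′ to 3′ on the strand of the gene. Capitals mark an E2F word in Cdc25a and Cdk2 and an E-box in Cdk4. The first 4 cover positions -250 to -51 from the start site, and the stretch of Cdk2 covers 30 bases around its E2F word, which lies on the opposite strand from 140 to 133 bases before the start site. These matches describe letters only, and no binding was measured here.
Cdc25a, chr9:109875329-109875528, plus strand: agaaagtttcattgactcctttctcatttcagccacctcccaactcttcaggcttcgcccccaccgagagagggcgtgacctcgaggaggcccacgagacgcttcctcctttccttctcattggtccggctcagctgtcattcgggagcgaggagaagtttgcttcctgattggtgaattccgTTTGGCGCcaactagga
Cdk4, chr10:127063285-127063484, plus strand: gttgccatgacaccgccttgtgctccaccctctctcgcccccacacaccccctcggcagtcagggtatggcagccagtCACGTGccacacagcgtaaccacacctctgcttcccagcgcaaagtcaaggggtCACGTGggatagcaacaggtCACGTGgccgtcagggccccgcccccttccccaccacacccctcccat
Ccne1, chr7:38107541-38107740, minus strand: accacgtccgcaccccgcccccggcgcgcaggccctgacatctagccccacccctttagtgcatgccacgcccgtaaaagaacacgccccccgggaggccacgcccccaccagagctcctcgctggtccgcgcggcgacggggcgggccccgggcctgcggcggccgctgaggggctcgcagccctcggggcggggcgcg
Ccnd3 (first of its windows), chr17:47504801-47505000, plus strand: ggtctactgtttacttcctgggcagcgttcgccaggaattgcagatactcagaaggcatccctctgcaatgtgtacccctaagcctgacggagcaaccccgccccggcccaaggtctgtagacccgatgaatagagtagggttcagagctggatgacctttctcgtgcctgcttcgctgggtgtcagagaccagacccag
Cdk2, chr10:128705173-128705202, minus strand: aaccaggaactGCGGGAAAgttgtgcagct

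The deposited values are counts on genes, which summed to between 10343907 and 14203098 per library. Normalized counts are counts divided by the library size scaled by edgeR's trimmed mean of M values (TMM), relative to the mean of the 6 libraries. Hells had 60.8, 68.4 and 83.4 normalized counts in the TKO libraries and 678, 523 and 395 in the DKO libraries, so each TKO library was below each DKO library. These counts cover the whole gene, of which the lox allele removes only a part. The study also describes Hells as controlled by the RB/E2F pathway, so its counts alone cannot verify a label. Rb1 measured 682 to 814 in TKO and 572 to 617 in DKO retinae, and Rbl1, which encodes p107, 13.5 to 27.5 and 15.1 to 24.2. The retinae of a genotype were not alike. Summed proliferation markers were highest in replicate 3 among TKO and lowest in replicate 3 among DKO retinae. Summed lens markers were at 3470 normalized counts in TKO replicate 2, against 519 to 626 in the other TKO and 105 to 109 in the DKO retinae. The crystallin genes of that list (Cryaa, Crybb2, Cryba1 and Crygs) were above the DKO retinae in each TKO retina. Bfsp1, Bfsp2 and Mip were above them in TKO replicate 2 alone, and Lim2 had 0, 47 and 2 counts in TKO and 0 in DKO libraries. Results without each retina are given beside the counts below. The submitters' labels give each library its own number, but what these numbers stand for is not stated. Whether the retinae of a genotype came from separate animals is therefore not settled, so the p-values measure the spread between these retinae.

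Of the 10 genes, 5 were called lower in TKO than in DKO retinae: Cdk2, Cdc25a, Ccnd2, Ccne1 and Cdk4, with fold changes from -1.75 to -1.08 on the log2 scale. Fold changes are log2 ratios of TKO over DKO with their standard error (SE). A gene was called when its p from the edgeR quasi-likelihood test, adjusted over all genes, did not exceed 0.05, its log2 ratio was 1 or more in size and its mean normalized count was 10 or more. By these 3 criteria 4.38% of the 16904 genes tested were called lower, 1.97% higher and 6.35% in either direction. Ccne2 and Ccna1 reached the adjusted p but missed the minimum fold change and the minimum mean count, respectively, so 7 genes were lower by adjusted p alone, against 9.20% of all genes (7.35% were higher and 16.6% passed in either direction). Ccnd1, Ccnd3 and Cdk6 did not pass. None of the 10 was called higher with edgeR or with DESeq2, and none was higher at an unadjusted p under 0.05 with either tool. The median log2 fold change was -1.13 over the 10 genes and -0.011 over all genes tested. The study displayed differentially expressed genes of the G1/S transition from the same libraries, and the 10 genes were chosen with earlier results of these data known. The count is therefore not independent evidence of their direction.

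The calls depended on single retinae. The number called lower was 2 without TKO replicate 1 (Ccnd2 and Cdk2), 2 without TKO replicate 2 (Ccnd2 and Cdk4), 1 without DKO replicate 1 (Ccnd2) and 1 without DKO replicate 2 (Cdk4). Among all genes 2.93%, 1.86%, 2.16% and 2.1% were called lower in these fits. The number of the 10 was 6, with Ccne2 added, without TKO replicate 3 and also without DKO replicate 3, where 6.11% and 4.98% of all genes were called lower. In each of these 6 fits the 7 genes kept a log2 fold change below 0 and at least 7 of the 10 genes had an unadjusted p under 0.05 in the lower direction, against 13.8% to 19.4% of all genes.

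**Figure D1:**
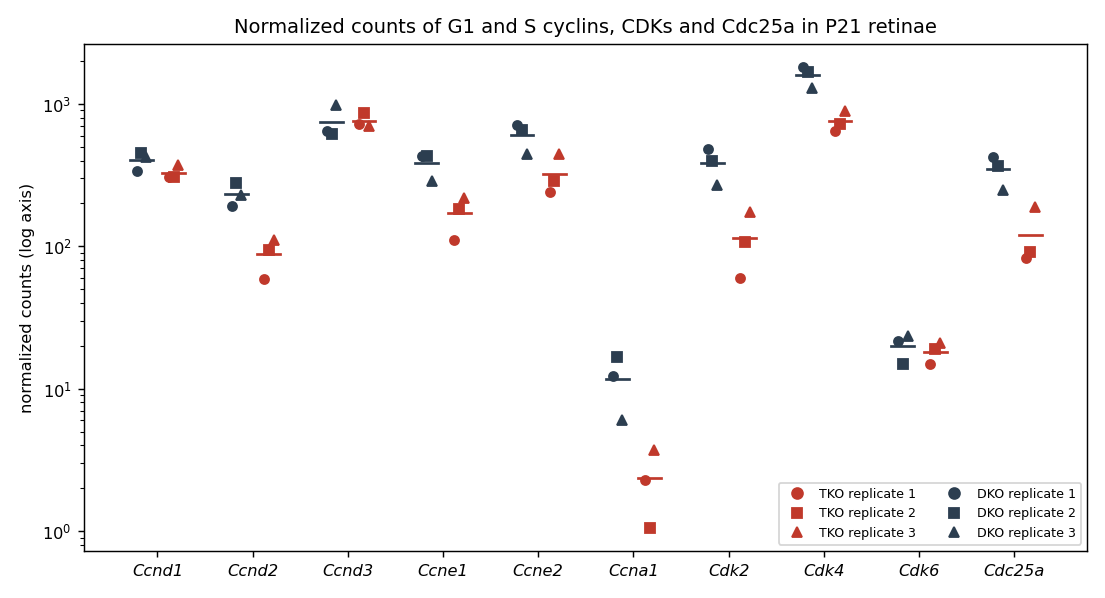
Normalized counts (log axis) of the 10 genes in each of 3 DKO (dark) and 3 TKO (red) retinae, with a bar at the mean of each genotype and a symbol for each replicate. The groups did not overlap for Ccnd2, Ccne1, Ccne2, Ccna1, Cdk2, Cdk4 and Cdc25a, and overlapped for Ccnd1, Ccnd3 and Cdk6.

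Of the D cyclins only Ccnd2 was called. Ccnd1 lies on chromosome 7 (144929931 to 144939925, minus strand, GRCm38) and had 307, 305 and 376 normalized counts among the TKO retinae, given here and below in the order of replicates 1, 2 and 3, against 339, 451 and 421 among the DKO retinae. The highest TKO retina lay above the lowest DKO retina. Its log2 ratio was -0.30 (SE 0.141, edgeR adjusted p = 0.183), with a 95% interval from -0.62 to 0.028. Ccnd1 shares 1100 bp of its exons with LTO1 (Oraov1) on the other strand, and 8 of the 10 genes share exon bases with a gene on the other strand. The strand setting of the counting is not stated, and the part of such reads in these values was not tested.

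Ccnd2, on chromosome 6 (127125162 to 127152193, minus strand), encodes the D cyclin that many growth and MYC signals induce. It measured 58.5, 94.7 and 110 normalized counts among the TKO retinae, against 193, 279 and 229 among the DKO retinae. Each TKO retina was below each DKO retina, which held for 20.6% of all genes in that direction, 18.0% in the other and 38.6% in either. The means were 87.9 ± 26.6 and 234 ± 43.4 (SD, n = 3 each), giving a log2 ratio of -1.41 (SE 0.244, edgeR adjusted p = 0.0101), or 2.66-fold lower. Without DKO replicate 2 the adjusted p was 0.0506, and with each other retina left out it was at most 0.0457.

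Ccnd3, on chromosome 17 (47505051 to 47599691, plus strand), measured 725, 867 and 696 normalized counts among the TKO retinae, against 650, 618 and 990 among the DKO retinae. The groups overlapped, and DKO replicate 3 was the highest retina. The log2 ratio was 0.019 (SE 0.182, edgeR adjusted p = 0.953), with an interval from -0.40 to 0.43. Its sign turned below 0 with upper-quartile scaling, with library totals alone and without TKO replicate 2, DKO replicate 1 or DKO replicate 2. A processed pseudogene, Ccnd3-ps, is annotated. The authors' methods allow more than 1 alignment per read, but which tools made these counts is not settled. Whether reads of the pseudogene entered the Ccnd3 count was not tested, so that count is less certain.

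The counts of D cyclins were also compared within each library, where the scaling between libraries plays no part. The ratio of Ccnd2 to Ccnd1 counts was 0.190, 0.310 and 0.294 in TKO and 0.569, 0.619 and 0.543 in DKO retinae. Each TKO retina was below each DKO retina, and the mean log2 ratio was lower by 1.15 in TKO (exact two-sided permutation test, p = 0.1, 0.15 adjusted over 6 ratios). A p of 0.1 is the smallest that 3 retinae against 3 allow, so none of these ratios could pass 0.05. The ratio of Ccnd3 to Ccnd2 was 12.4, 9.16 and 6.30 in TKO and 3.37, 2.21 and 4.33 in DKO retinae, again without overlap (exact p = 0.1, adjusted 0.15). The ratio of Ccnd3 to Ccnd1 overlapped between the genotypes (exact p = 0.4, adjusted 0.4).

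Of the E cyclins, Ccne1 was called lower and Ccne2 passed the adjusted p alone. Ccne1, on chromosome 7 (38097984 to 38107534, minus strand), measured 110, 184 and 217 normalized counts among the TKO retinae, against 431, 433 and 289 among the DKO retinae. TKO replicate 1 was the lowest, and the gap between the groups lay between TKO replicate 3 and DKO replicate 3. The means were 170.5 ± 54.9 and 385 ± 82.5 (SD, n = 3 each), giving a log2 ratio of -1.17 (SE 0.254, edgeR adjusted p = 0.0190). The adjusted p was above 0.05, at most 0.0801, without TKO replicate 2, DKO replicate 1 or DKO replicate 2.

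Ccne2, on chromosome 4 (11191351 to 11204779, plus strand), measured 241, 288 and 444 normalized counts among the TKO retinae, against 710, 658 and 446 among the DKO retinae. TKO replicate 3 and DKO replicate 3 were almost level. The log2 ratio was -0.90 (SE 0.245, edgeR adjusted p = 0.0408), short of the minimum of 1. The adjusted p was above 0.05, up to 0.139, in 4 of the 6 fits that left out a retina, and was 0.0648 with robust dispersion estimates. Ccne2 shares 609 bp of its exons with Ints8 on the other strand. Raw counts of Ints8 were 714 to 741 in TKO and 857 to 1103 in DKO libraries. They are not scaled to library size, which was smaller in TKO (10307000 to 12018000 after TMM) than in DKO (13440000 to 14650000), so they do not show a direction. The ratio of Ccne2 to Ccne1 was 2.19, 1.57 and 2.05 in TKO and 1.65, 1.52 and 1.54 in DKO retinae, with overlap (exact p = 0.2, adjusted 0.24).

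Ccna1, on chromosome 3 (55045469 to 55055501, minus strand), encodes the A cyclin of the male germ line. It was close to the limit of detection, with 2, 1 and 3 counts among TKO libraries, against 13, 19 and 7 among DKO libraries. All TKO libraries were at or under 3 counts, the number that a count of 0 allows, and against that limit per library Ccna1 was at least 3.40-fold lower in TKO retinae. Its adjusted p was 0.0421 from edgeR and 0.0634 from DESeq2, and up to 0.150 with 1 retina left out. The 3.40-fold value takes in neither the error of these counts nor the spread between retinae, and is not a lower bound.

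Among the kinases, Cdk2, the partner of E and A cyclins, lies on chromosome 10 (128697939 to 128705031, minus strand). It measured 59.6, 107.35 and 174 normalized counts among the TKO retinae, against 480, 397 and 271 among the DKO retinae. Each TKO retina was below each DKO retina, and the SE was the largest among the 5 genes called. The means were 114 ± 57.6 and 383 ± 105 (SD, n = 3 each), giving a log2 ratio of -1.75 (SE 0.353, edgeR adjusted p = 0.0151), or 3.37-fold lower. Without TKO replicate 2, DKO replicate 1 or DKO replicate 2 the adjusted p was above 0.05, at most 0.0683.

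Cdk4, a partner of D cyclins, lies on the same chromosome (127063534 to 127067920, plus strand) and had the highest mean count of the 10 genes over the 6 libraries. It measured 646, 727 and 886 normalized counts among the TKO retinae, against 1817, 1671 and 1301 among the DKO retinae. The highest TKO retina was below the lowest DKO retina. The means were 753 ± 122 and 1597 ± 266 (SD, n = 3 each), giving a log2 ratio of -1.08 (SE 0.153, edgeR adjusted p = 0.00700), or 2.12-fold lower. Cdk4 was the member whose adjusted p stayed at or below 0.05 in all 6 fits that left out a retina, from 0.00246 to 0.0401, while its log2 fold change ran from -1.21 to -0.98. It shares 641 bp of its exons with Tspan31 on the other strand. Raw counts of Tspan31, not scaled to library size, ran from 929 to 1079 in TKO and from 1076 to 1186 in DKO libraries. The TMM-scaled library sizes were smaller in TKO (10307000 to 12018000) than in DKO (13440000 to 14650000), so these raw ranges do not show a direction.

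Cdk6, the other partner of D cyclins, lies on chromosome 5 (3341485 to 3531008, plus strand). It was read at 13, 18 and 17 counts among TKO libraries, against 23, 17 and 27 among DKO libraries, or 14.9 to 20.9 and 14.9 to 23.3 normalized counts. The groups overlapped. The log2 ratio was -0.13 (SE 0.320, edgeR adjusted p = 0.811), with an interval from -0.86 to 0.61. The ratio of Cdk6 to Cdk4 counts was 0.0231, 0.0260 and 0.0235 in TKO and 0.0119, 0.00891 and 0.0179 in DKO retinae, without overlap (exact p = 0.1, adjusted 0.15). The ratio of Cdk2 to Cdk4 did not overlap either, and its mean log2 value was lower by 0.76 in TKO (exact p = 0.1, adjusted 0.15).

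Cdc25a, on chromosome 9 (109875579 to 109893895, plus strand), is a known E2F target and encodes the phosphatase that activates CDK2. It measured 82.6, 90.5 and 188 normalized counts among the TKO retinae, against 427, 369 and 248 among the DKO retinae. TKO replicate 3 stood closest to the DKO retinae. The means were 120 ± 58.6 and 348 ± 91.5 (SD, n = 3 each), giving a log2 ratio of -1.54 (SE 0.327, edgeR adjusted p = 0.0180), or 2.90-fold lower. In 4 of the 6 fits that left out a retina the adjusted p was above 0.05, at most 0.0774, and passed only without TKO replicate 3 or DKO replicate 3.

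**Figure D2:**
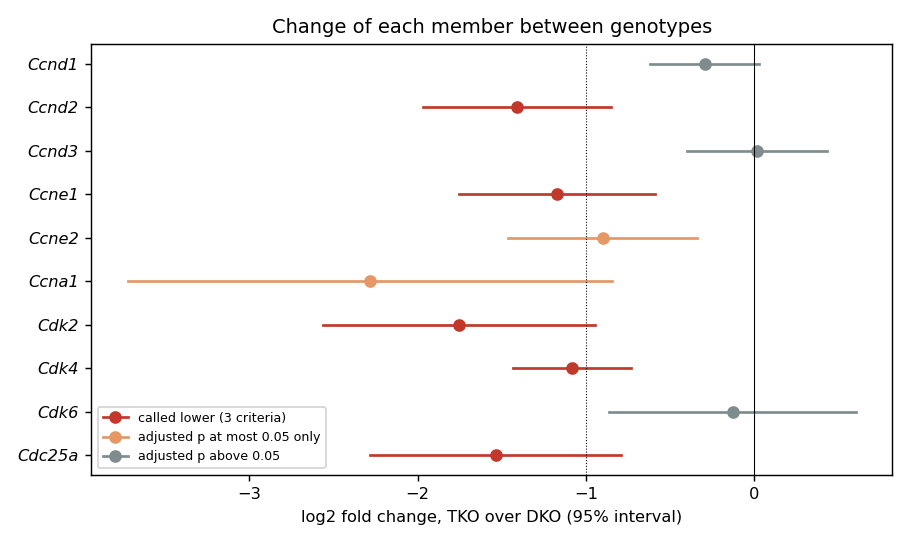
Log2 fold change, TKO over DKO, of each gene with its 95% interval from the edgeR fit. The dotted line marks -1, the minimum fold change for a lower call. The 5 genes in red lay between -1.75 and -1.08, Ccne2 and Ccna1 (orange) passed the adjusted p only, and the intervals of Ccnd1, Ccnd3 and Cdk6 (grey) covered 0.

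Levels of different genes were compared as CPM (counts scaled to the TMM-adjusted library size) per kilobase of exon, with the exon length of all annotated transcripts together, which understates genes with long rare exons. In DKO retinae Cdk4 had the highest level, 38.9 ± 6.47, followed by Ccne2 (13.7 ± 3.16), Ccne1 (11.4 ± 2.45), Ccnd3 (6.78 ± 1.86), Ccnd1 (6.78 ± 0.975), Cdk2 (4.87 ± 1.34), Cdc25a (3.43 ± 0.902) and Ccnd2 (1.96 ± 0.364). Ccna1 (0.501 ± 0.229) and Cdk6 (0.113 ± 0.0252) were the lowest (SD, n = 3 each). The values of neighbours in this order overlapped from Ccne2 down to Cdc25a, so that only Cdk4 at the top and Ccnd2, Ccna1 and Cdk6 at the bottom were set apart from the gene before or after them. In TKO retinae Cdk4 was again the highest, at 18.3 ± 2.97, and Ccne1 stood below Ccnd3 and Ccnd1, at 5.06 ± 1.63 against 6.87 ± 0.827 and 5.53 ± 0.671, with overlapping values.

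Summed over a family, the same length-scaled level of the D cyclins was 13.1 ± 0.836 in TKO and 15.5 ± 2.38 in DKO retinae, and the values overlapped. The E cyclins summed to 12.4 ± 3.91 in TKO and 25.1 ± 5.58 in DKO retinae, and the 3 kinases to 19.9 ± 3.72 and 43.8 ± 7.79, without overlap in either sum. Within the D cyclins, Ccnd2 made up 5.57% ± 1.43 of the summed level in TKO and 12.7% ± 2.24 in DKO retinae, while Ccnd1 made up 42.1% ± 4.70 and 43.9% ± 4.73. Cdk4 held most of the kinase sum in both genotypes, 92.5% ± 2.34 and 88.8% ± 1.10.

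**Figure D3:**
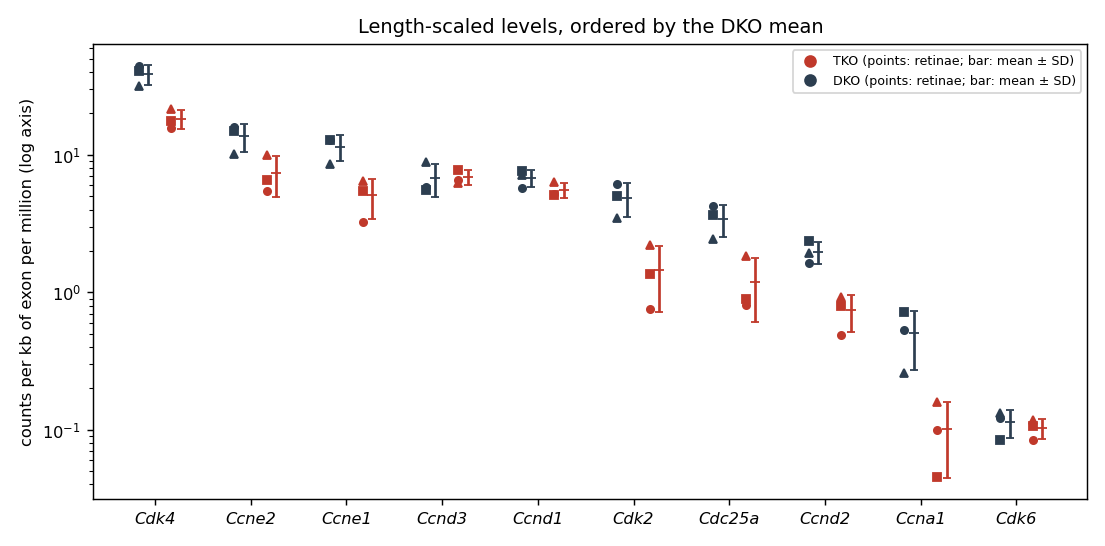
CPM per kilobase of exon (log axis) of each gene, ordered by the DKO mean. Points are single retinae, and bars are the mean ± SD of 3 retinae. Cdk4 was the highest in both genotypes and Cdk6 and Ccna1 the lowest.

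The level of these genes differed between retinae of a genotype. Among TKO retinae replicate 1 had the lowest normalized count for 7 of the 10 genes and replicate 3 the highest for 9. Among DKO retinae replicate 3 had the lowest for 6. The sum of 5 proliferation markers (Mki67, Top2a, Pcna, Prc1 and Bub1), all 5 called lower in TKO retinae, was 1342, 1921 and 3126 normalized counts in TKO and 12288, 9467 and 6267 in DKO retinae, so that the same retinae stood closest to each other. All 8 rod markers were called higher, and their sum ran from 337190 to 684670 in TKO and from 114920 to 219180 in DKO retinae. Of 7 microglia markers 4 were called lower, with sums from 1445 to 2419 in TKO and from 2600 to 4093 in DKO retinae. The part of these cell populations in the values of the cyclins and kinases was not tested.

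**Figure D4:**
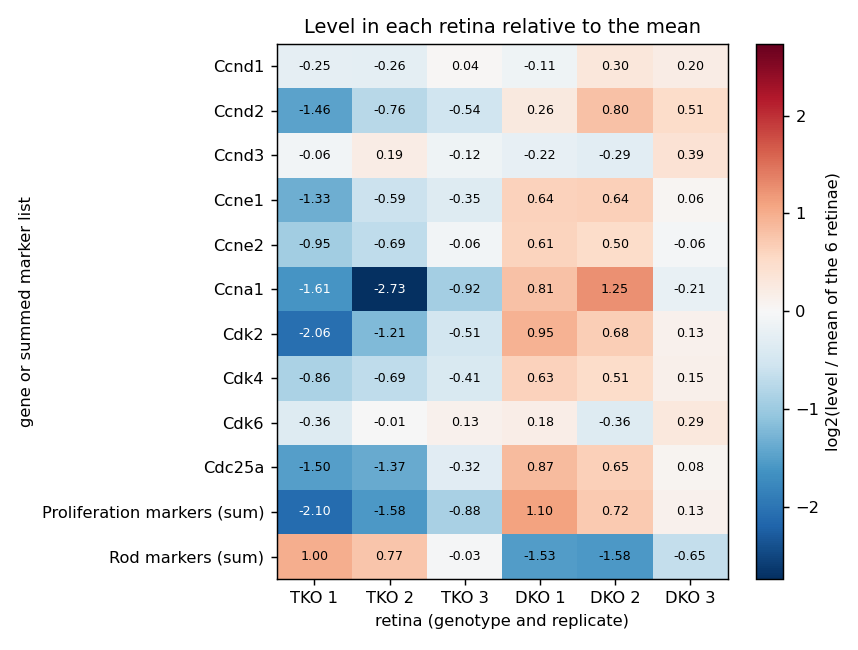
Level of each gene, and of the summed proliferation and rod markers, in each retina as log2 of the level over the mean of the 6 retinae (blue below, red above). Cdk2 ran from -2.06 in TKO replicate 1 to 0.95 in DKO replicate 1, and the proliferation markers from -2.10 to 1.10 in the same retinae.

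Markers of other cells were looked at in the same way. Lens markers were called higher for 4 of 8 genes, with sums as above and TKO replicate 2 far above the others, and their part was not tested. Without that retina Cdk2, Ccne1 and Cdc25a reached edgeR adjusted p-values of 0.0683, 0.0673 and 0.0774, at log2 ratios of -1.72, -1.23 and -1.37. Of the Muller glia markers 1 of 7 was called higher and none lower, with sums from 79630 to 86838 in TKO and from 68515 to 80956 in DKO retinae. Of the cone markers 2 of 6 were called higher, with sums from 6397 to 16951 in TKO and from 4440 to 7310 in DKO retinae. Of the RPE markers 1 of 6 was called higher, and of the astrocyte and gliosis markers 1 of 5 lower, with a sum of 22657 normalized counts in DKO replicate 3 against 4196 to 10854 in the other retinae. None of the bipolar (7), amacrine (6), ganglion cell (6), horizontal cell (5) and endothelial (6) markers was called in either direction with edgeR, and 2, 2, 1, 2 and 1 of them had an unadjusted p under 0.05, as did 33.1% of all genes. Of 5 blood markers 4 haemoglobin genes were at 0 counts in each library and the fifth, Alas2, was called higher.

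The other genes of the pathway were read from hand-written lists. All 5 cyclins and kinases of S to M phase (Ccna2, Ccnb1, Ccnb2, Ccnf and Cdk1) were called lower, with a median log2 fold change of -2.50. Cdk1, the kinase of mitotic entry, averaged 96.7 ± 57.6 normalized counts in TKO against 616 ± 195 in DKO (SD, n = 3 each), with a log2 ratio of -2.68 (SE 0.415, edgeR adjusted p = 0.00780). Its partner Ccnb1 had -2.89, and Ccna2, the A cyclin of dividing somatic cells, had -1.32. The adjusted p of Ccna2 was 0.0537 in 1 of the fits that left out a retina, and that of Cdk1 and Ccnb1 stayed at or below 0.0468.

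Of 7 CDK inhibitors, 3 were called lower and none higher, and 5 were lower by adjusted p alone, with a median log2 fold change of -1.01. Cdkn2a, which encodes p16 and p19ARF, was at 1, 1 and 2 counts in the TKO libraries, against 26, 28 and 21 in those of DKO, and so at least 6.53-fold lower by the limit of 3 counts per library. Cdkn1a, which encodes p21, had a log2 ratio of -1.45 (SE 0.260, edgeR adjusted p = 0.0112, at most 0.0531 with 1 retina left out). Cdkn1b, which encodes p27 and had the highest mean count of the list, averaged 868 ± 131 in TKO against 863 ± 54.2 in DKO, with a log2 ratio of 0.0096 (edgeR adjusted p = 0.962). The number called lower was 1 without DKO replicate 1 and also without DKO replicate 2.

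Among 13 pocket protein, E2F and DP genes, 4 were called lower (E2f1, E2f2, E2f7 and E2f8) and none higher, with log2 fold changes of the 4 from -1.90 to -1.80. By adjusted p alone 6 were lower and 3 were higher. The 3 were the pocket protein gene Rbl2 (0.31, edgeR adjusted p = 0.0218, up to 0.0915 with 1 retina left out), Rb1 and E2f4. Rb1, a targeted gene, was at 0.34 (edgeR adjusted p = 0.0388) and E2f4 at 0.36 (edgeR adjusted p = 0.0389). Tfdp1, the DP partner with the highest mean count, had a log2 fold change of -0.55 (edgeR adjusted p = 0.0103, up to 0.0527 with 1 retina left out). With TKO replicate 2 left out, or DKO replicate 2, the number called lower was 0, and with DKO replicate 1 left out it was 1. With robust dispersion estimates it was 2. The median of the list was -0.20.

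Of 7 genes that set CDK activity through phosphorylation, 2 were lower by adjusted p, and of these only Cdc25c, the phosphatase of mitotic entry, was also called (-1.79, edgeR adjusted p = 0.00733), and 3 were called lower without TKO replicate 3, without DKO replicate 3, with upper-quartile scaling, with library totals alone and with a filter of 10 counts in every library. Cdk7 and Ccnh, of the CDK-activating kinase, were at 0.054 and 0.065 (edgeR adjusted p = 0.693 and 0.633). Of 12 genes for the turnover of cyclins and inhibitors, 3 were called lower, namely Cks2 (-2.75), Cks1b (-2.03) and Skp2 (-1.15), of which Skp2 and Cks1b act together in the destruction of p27. Skp1a, which had the largest mean count of the list, was at -0.098 (edgeR adjusted p = 0.50), and Cul3, which takes part in the turnover of cyclin E, was at 0.42 (edgeR adjusted p = 0.0134, up to 0.0666 with 1 retina left out).

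The lists of transcriptional and of neuronal and atypical cyclins and CDKs gave 0 calls with edgeR in either direction. The median log2 fold change was 0.21 for 12 genes of transcription and -0.055 for 13 neuronal and atypical genes, and in each of these lists 6 genes had an unadjusted p under 0.05, against 33.1% of all genes. By adjusted p alone 2 transcriptional genes were higher, one of them Cdk19, a kinase of the Mediator complex (0.49, edgeR adjusted p = 0.0218, up to 0.0896 with 1 retina left out). In the neuronal and atypical list Cdk5r1, an activator of CDK5, was lower (-0.38, edgeR adjusted p = 0.0471) and Cdk5 was higher (0.24, edgeR adjusted p = 0.0487) by adjusted p alone, both named after their values were seen. Cdk16 and Ccni, the genes with the highest mean counts of that list, had log2 fold changes of 0.0075 and -0.055.

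**Figure D5:**
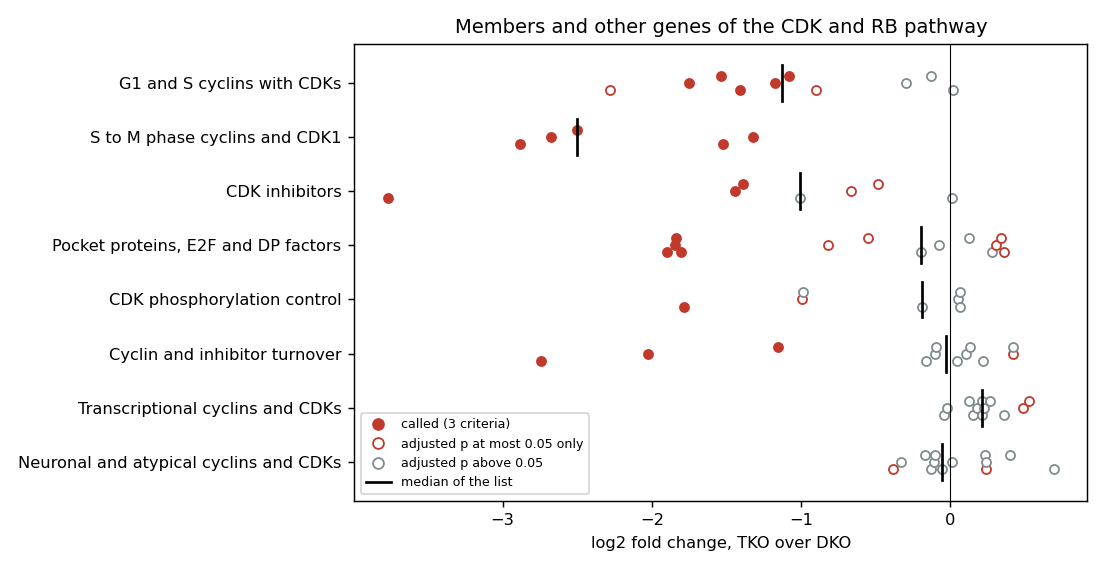
Log2 fold change, TKO over DKO, of each gene in the 10-gene set and in 7 lists of related genes, with a bar at the median of each list. Filled red points were called by the 3 criteria, open red points passed the adjusted p alone, and open grey points did not pass. The medians ran from -2.50 for S to M phase cyclins and CDK1 to 0.21 for transcriptional cyclins and CDKs.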

How the data were processed

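RNA-seq counts of 3 TKO and 3 DKO P21 retinae were analysed, with genotype and replicate number from the sample titles. The authors' methods describe STAR alignment to GRCm38, with up to 3 alignments per read, and HTSeq counting. The submitters' processing notes name TopHat2 and featureCounts instead, and which of them made the deposited raw counts, and with which strand setting, is not given in the sources used here. Library totals are in the report.

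Genes with a sum under 10 were removed. Counts were compared with edgeR 4.0.16 in R 4.3.3 (TMM, quasi-likelihood F test, genotype only) with Benjamini-Hochberg adjustment over 16904 genes. SE is the size of the log2 ratio divided by the root of F. The criteria for a call follow the study's methods, and the minimum mean count used DESeq2 size factors. DESeq2 1.42.0, other scalings, filters, dispersion estimates and thresholds, a replicate block and each retina left out were alternatives. Coordinates and exon lengths are from GENCODE M21 (GRCm38).

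The members, lists and tests were chosen with earlier results of these data known. Named genes were the 10 members, the targeted genes, and in each list the 2 with the largest mean count and, in pathway lists, the 2 largest changes among calls. Other genes with values were named after their values were seen. Lists were counted, not tested. Chi-square values per degree of freedom between libraries of a genotype ran from 8.19 to 23.4, so no pair agreed within sampling noise.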

Additional observations from a re-analysis of the deposited data

How the results depend on the processing

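With DESeq2, the other scalings, the other filters and robust dispersion estimates, 5 or 6 of the 10 genes were called lower, against 4.02% to 5.82% of all genes. The 6 came with library totals alone, the setting with the 5.82%. The number called lower was 1 at an adjusted p of at most 0.01, where the share of all genes was not computed. It was 7 by adjusted p alone, against 9.20% of all genes. When 1 retina was left out it was between 1 and 6, against 1.86% to 6.11% of all genes. With the replicate number as a block, although retinae of the same number did not deviate together (correlations of 0.052, -0.045 and -0.16 over genes), it was 0 with edgeR, where 0.444% of all genes were called lower. In that fit 7 of the 10 genes, and 15.8% of all genes, were lower at an unadjusted p under 0.05. The adjusted p-values of these 7 genes then ran from 0.0534 to 0.125, and the list calls of the pathway were 0 as well. The 7 lower genes kept their direction under each alternative. Ccna1 was removed by both stricter filters. Ccnd3 was at -0.013 with upper-quartile scaling and -0.14 with library totals, which move the median of all genes to -0.17, and from -0.11 to 0.27 with 1 retina left out. Cdk6 ran from -0.30 to 1.8e-05 when 1 retina was left out. Ccna1 and Cdk6 had the lowest counts, at most 27 in a library.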
